A study of Nannochloropsis oceanica with 8 samples.

Results

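The histone marks Kbu and H3K9me2 were set against each other in the same cells, at the same CO2 level and over the same peaks. The cells were strain IMET1 of the oil-rich marine microalga Nannochloropsis oceanica, grown in continuous light in column reactors with Tris-buffered, modified f/2 medium. Cultures were aerated with 5% CO2 in a short adaptation phase and then switched to 0.04% CO2, and cells were taken 24 h later. The comparison used 4 of the 8 ChIP-seq libraries, which were the 2 libraries of Kbu and the 2 libraries of H3K9me2 at 0.04% CO2, over all 6185 deposited peaks. The labels describe 3 cultures per CO2 level without tying libraries to them, so the spread between the 2 libraries of a mark may be technical. The libraries of the 5% CO2 cultures were used to test whether a difference between the marks depended on CO2, and to give the level of each mark there beside some results.

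H3K9me2 is dimethylation of lysine 9 of histone H3. It is laid down by SET-domain methyltransferases and is read by proteins that keep chromatin compact, and in many plants, fungi and animals it marks silenced repeats. Kbu is the usual abbreviation of lysine butyrylation, an acyl mark that draws on butyryl-CoA and so on fatty acid metabolism, and in mammalian cells and rice it is found at transcribed genes. The label gives the antibody as Kbu with no histone residue. The H3K9me2 antibody is given with a separate lot number for each library. The files carry no gene names and no nuclear gene annotation was used here, so peaks are described by number, position and width. Positions are those of the deposited files, and their genome build is not given here by any label or header.

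The level of a mark at a peak is the deposited pileup divided by the lowest control value of that library, and is given in times that value. Taking the lowest control value for the genome background is an assumption, since the labels describe neither the control nor the scaling of the pileup. Every level and class below rests on it, and "background" means that value. A mark is called carried where its level was at least 2 in both libraries. A level of 2 was worth 92.2 and 46.2 reads in H3K9me2 libraries 1 and 2, and 132 and 80.5 reads in Kbu libraries 1 and 2. Counting error at that level was 10.4% and 14.7% for H3K9me2 and 8.70% and 11.1% for Kbu, so a level near 2 is loosely placed. Across peaks, the log2 levels of the 2 Kbu libraries correlated at 0.932 and those of the 2 H3K9me2 libraries at 0.667 (n = 6185 peaks, which share libraries and are not independent).

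Kbu stood above H3K9me2 at most of the peak set. The median Kbu level was 2.54 in library 1 and 2.63 in library 2, and the median H3K9me2 level was 1.50 in library 1 and 1.65 in library 2. Both Kbu medians lay above both H3K9me2 medians. Their means were 2.59 ± 0.066 for Kbu and 1.57 ± 0.11 for H3K9me2 (SD, n = 2 each), a ratio of 1.65. An exact permutation test of 2 medians against 2 gave p = 0.333 (two-sided), which is the smallest it allows. Kbu levels also spread wider, from 0.590 to 10.9 in library 1, while H3K9me2 ran from 0.673 to 7.77 in its library 1.

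Peak by peak, the marks differed at 5136 peaks (83.0%), with Kbu higher at 4976 (80.5%) and H3K9me2 higher at 160 (2.59%), by limma with a Benjamini-Hochberg adjusted p under 0.05 over all 6185 peaks. The other 1049 did not pass. Both Kbu libraries lay above both H3K9me2 libraries at 5328 peaks (86.1%), and both H3K9me2 libraries lay above both Kbu libraries at 324 (5.24%). The libraries of the marks overlapped at 533 peaks. The median difference, Kbu minus H3K9me2, was 0.66 on the log2 scale. A difference of at least 2-fold was found at 820 peaks for Kbu and at 1 peak, peak748, for H3K9me2.

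This split depends on how the marks are put on a common scale. With every library scaled to the same median level, the counts were 827 for Kbu and 1297 for H3K9me2. The median difference was then -0.02, a value that the scaling itself largely fixes. The unscaled counts compare levels over the lowest control value, which is not the control of the peak itself. The scaled counts describe which peaks are rich in a mark relative to that mark's own median. Each mark had its own antibody, and what the antibodies contribute to the difference in level was not tested. The marks had nearly the same local control. Its value was identical in Kbu library 1 and H3K9me2 library 1 at 5892 peaks, and its ratio between Kbu library 2 and H3K9me2 library 2 was 1.02 to 1.06 between the 1st and 99th percentile of peaks. With the control of each peak as the divisor, Kbu was higher at 4981 peaks and H3K9me2 at 205. The median pileup was then 0.718 and 0.748 times that control in the Kbu libraries and 0.433 and 0.474 times in the H3K9me2 libraries.

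**Figure D1:**
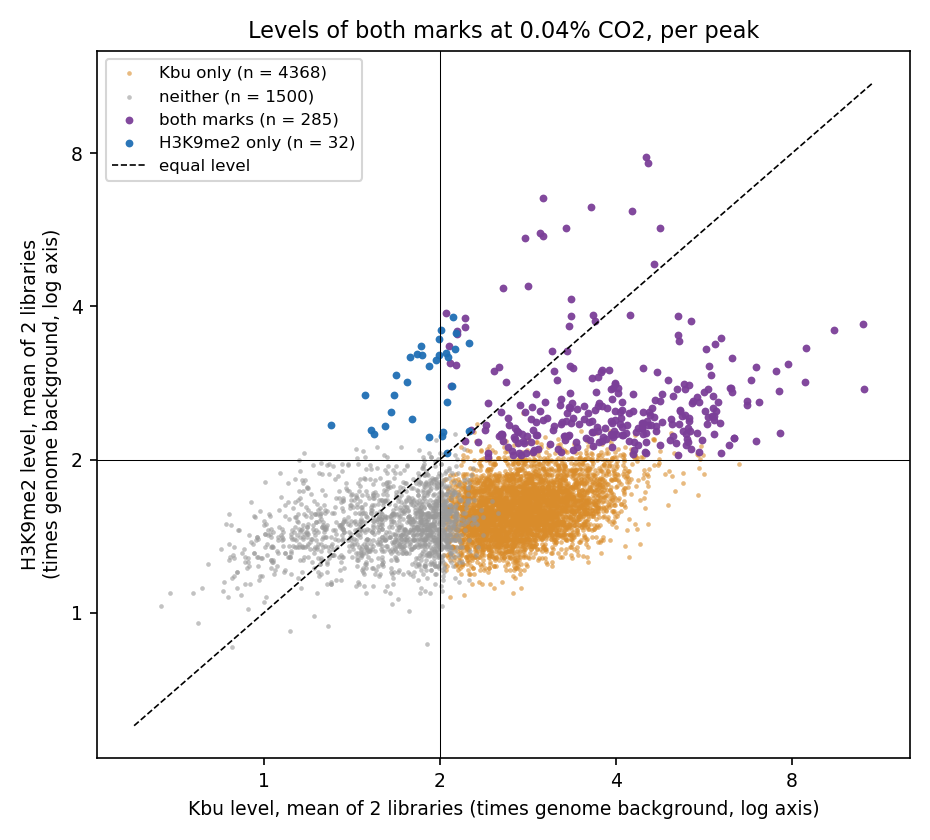
Mean H3K9me2 level against mean Kbu level at 0.04% CO2 for all 6185 peaks, both on log axes in times genome background. Thin lines mark a level of 2 and the dashed line equal levels. The 4368 Kbu-only peaks lie to the lower right, and the highest H3K9me2 levels, up to 7.77 in library 1, lie above the dashed line at Kbu levels of 2.81 to 4.94.

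The 6185 peaks fell into 4 classes. Kbu alone was carried at 4368 peaks (70.6%), both marks at 285 (4.61%), H3K9me2 alone at 32 (0.517%), and neither at 1500 (24.3%). Of the 317 peaks that carried H3K9me2, 285 also carried Kbu, which was carried at 75.2% of all peaks. This balance depends on the cut and the divisor. With a cut of 3, 24 peaks held both marks and 23 H3K9me2 only, and over the control of the peak the counts were 6 and 11. The large classes moved too. Kbu only held 1278 peaks and neither 4860 with a cut of 3. Over the control of the peak they held 9 and 6159. The cut at 2 passes through a continuous range of levels. For H3K9me2 the lower library lay between 1.8 and 2 at 367 peaks and between 2 and 2.2 at 117, and for Kbu at 511 and 588. The value of the lower library was 2.02 for the H3K9me2 peak just inside the cut and 1.996 for the peak just outside. H3K9me2 reached 2 in library 1 at 399 peaks and in library 2 at 814, and 579 peaks reached it in a single library.

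With a cut of 2 over the lowest control value, Kbu-only peaks formed the main body of the set. Their median Kbu level was 2.72 and 2.81 in the 2 libraries, and their median H3K9me2 level was 1.52 and 1.65, close to that of all peaks. Their width had a median of 1070 bp (quartiles 870 and 1179 bp). Kbu lay above H3K9me2 in all 4 libraries at 99.4% of them, and limma called it higher at 4276, which the class itself favours. At 5% CO2, in libraries that took no part in the classing, 4328 of the 4368 (99.1%) also carried Kbu, against 5733 of all 6185 peaks (92.7%).

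Where Kbu was most above H3K9me2, the peaks held strong Kbu and ordinary to moderate H3K9me2. At peak5248 (chromosome 6, 698863 to 700540, 1677 bp) the Kbu level was 10.9 and 10.3 and the H3K9me2 level 2.69 and 2.82. This was the highest Kbu level of the set in library 1, and the peak carried both marks. The difference was 1.91 on the log2 scale (SE 0.11, limma adjusted p = 1.5e-07), a ratio of means of 3.87. At peak5642 (chromosome 7, 1188247 to 1189763) Kbu stood at 7.67 and 7.60 and H3K9me2 at 2.13 and 2.38, a difference of 1.72. At peak4057 (chromosome 29, 579848 to 580964), the last peak of its chromosome, Kbu stood at 7.40 and 6.49 and H3K9me2 at 2.23 and 2.12, a difference of 1.62.

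The other peaks of this kind carried Kbu alone. At peak3296 (chromosome 23, 488101 to 489628) Kbu stood at 6.41 and 6.58 and H3K9me2 at 1.801 and 2.12, a difference of 1.68. At peak4231 (chromosome 3, 913524 to 914689) the values were 5.93 and 5.12 for Kbu and 1.50 and 1.91 for H3K9me2, a difference of 1.65. Peak4781 (chromosome 4, 1448191 to 1449310) had the lowest H3K9me2 of these, at 1.28 and 1.30, beside Kbu at 4.17 and 4.25. All 6 had an adjusted p of 1.4e-06 or lower in limma, and at each of them the libraries of the marks stood far apart.

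Peaks that carried both marks were wide and rich in Kbu. Their median width was 1368 bp (quartiles 1051 and 1606 bp) against 1031 bp over all peaks, and 36.1% of them were at least 1500 bp wide against 4.06% of all peaks. Their median Kbu level was 3.84 and 4.05, above the median of the Kbu-only peaks in both libraries, and their median H3K9me2 level was 2.34 and 2.51. Kbu lay above H3K9me2 in all libraries at 241 of the 285, H3K9me2 lay above Kbu at 27, and the libraries overlapped at 17. So most of these peaks had modest H3K9me2 under strong Kbu. Among the 75 peaks with a Kbu level of at least 5 in both libraries, the median H3K9me2 level was 2.34 and 2.60.

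Wide peaks also had a high control. The control at the peak, given as a multiple of its lowest value and averaged over the 4 libraries, had a median of 4.99 at peaks with both marks, 3.81 at Kbu-only peaks and 3.52 over all peaks. Over all peaks, the Spearman correlation with the control was 0.663 for the Kbu level and 0.390 for the H3K9me2 level, and that of width with the control was 0.631. The pileup exceeded the control of the same peak at 730 and 918 peaks in the Kbu libraries and at 179 and 262 in the H3K9me2 libraries. With that control as the divisor, 9 peaks carried Kbu only, 6 both marks and 11 H3K9me2 only. What the control contributes to the pileups was not tested.

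**Figure D2:**
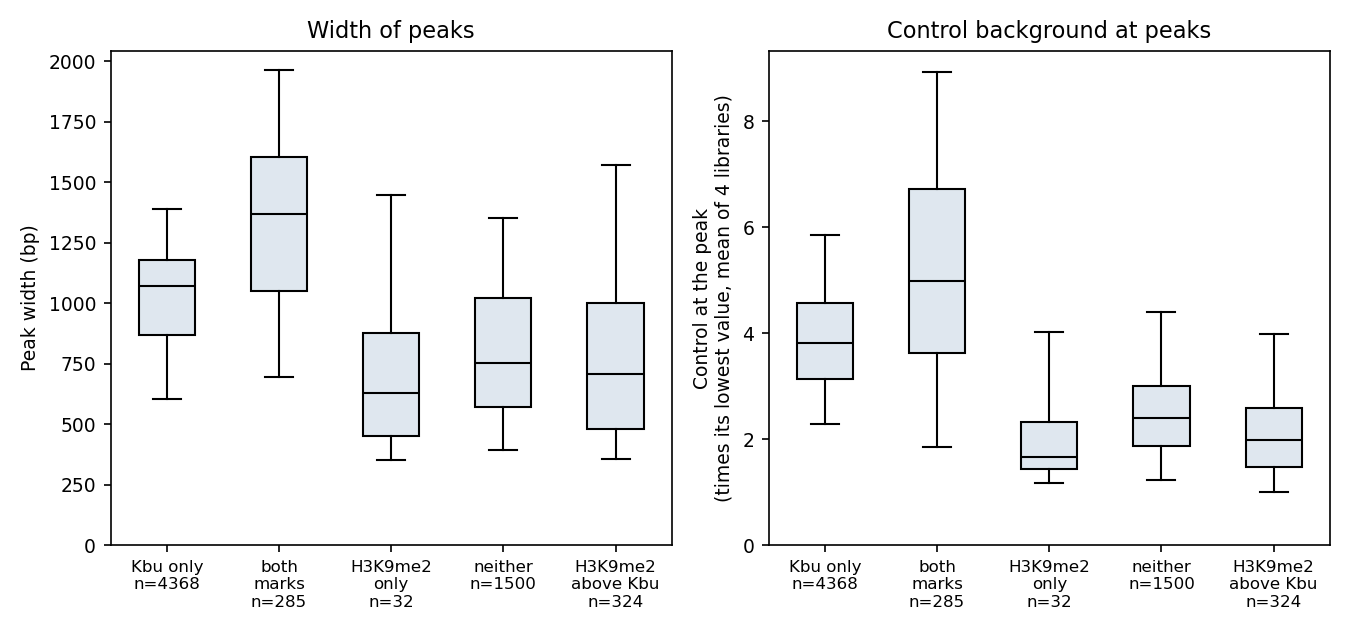
Peak width in bp (left) and control background at the peak in multiples of its lowest value (right) for the 4 classes and for the 324 peaks with H3K9me2 above Kbu. Lines are medians, boxes quartiles, and whiskers the 5th and 95th percentiles. Peaks with both marks are widest (median 1368 bp) and have the highest control (median 4.99), and H3K9me2-only peaks are narrow (median 628 bp) with a low control (median 1.67).

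The strongest H3K9me2 stood on peaks with Kbu above the median of all peaks. H3K9me2 reached a level of 5 in both libraries at 8 peaks. It lay above Kbu in all libraries at each of these 8, and limma called it higher at all 8, which choosing peaks by their H3K9me2 level favours. Kbu was carried at all of them, with a median level of 3.83 and 4.06, close to the medians of the class with both marks (3.84 and 4.05). Moving from levels of at least 2 to at least 3, H3K9me2 lay above Kbu at 17.4% of 317 and at 70.2% of 47 peaks, and this choice favours the order in the same way.

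At peak749 (chromosome 11, 805408 to 806535, 1127 bp) the H3K9me2 level was 7.77 and 7.93 and the Kbu level 4.05 and 4.94, a difference of -0.80 on the log2 scale (SE 0.12, limma adjusted p = 3.3e-05). Its neighbour peak748 (chromosome 11, 804022 to 804719), 689 bp away, had H3K9me2 at 5.51 and 7.54 and Kbu at 2.81 and 3.18. This was the largest excess of H3K9me2 over Kbu in the set, with a difference of -1.08 (SE 0.14, limma adjusted p = 1.1e-05) and a ratio of means of 2.18. At peak2254 (chromosome 19, 241503 to 243076) H3K9me2 stood at 6.79 and 8.49, the highest value of library 2, and Kbu at 4.49 and 4.57, a difference of -0.73. In all 3 peaks both H3K9me2 libraries lay above both Kbu libraries.

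At peak2876 (chromosome 20, 613745 to 614534) H3K9me2 stood at 4.90 and 5.98 and Kbu at 2.66 and 2.93, a difference of -0.93. At peak1824 (chromosome 16, 696238 to 696947) the values were 3.73 and 4.03 for H3K9me2 and 2.06 and 2.04 for Kbu, a difference of -0.89. On chromosome 15, peak1602 (586050 to 586585) had H3K9me2 at 5.47 and 5.68 and Kbu at 2.98 and 2.96, and peak1583 (498310 to 498979) had H3K9me2 at 6.01 and 4.98 and Kbu at 3.07 and 2.93. Their differences were -0.89 and -0.85. All of these peaks were narrower than the median peak, between 535 and 789 bp, and none of their adjusted p-values in limma was above 2.6e-05.

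The other peaks named for high levels of both marks differed by less than peak749. At peak4256 (chromosome 3, 1023007 to 1024806) H3K9me2 stood at 5.81 and 6.50 and Kbu at 4.01 and 4.52, a difference of -0.52 (limma adjusted p = 0.00093). At peak5611 (chromosome 7, 1037585 to 1038659) it was -0.75, with H3K9me2 at 5.27 and 7.28 and Kbu at 3.66 and 3.60. At peak6010 (chromosome 9, 418238 to 420179) H3K9me2 was 5.36 and 6.07 and Kbu 4.70 and 4.80. That difference of -0.26 just passed (limma adjusted p = 0.049). The adjusted p was 0.0965 without H3K9me2 library 2, 0.199 without Kbu library 1, 0.166 without Kbu library 2 and 0.132 over the control of the peak. Peak2482 (chromosome 2, 516167 to 517825) held the marks at nearly equal levels, with H3K9me2 at 4.75 and 4.94 and Kbu at 4.96 and 4.32. The difference there was -0.06, with a 95% confidence interval of -0.32 to 0.19.

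Strong H3K9me2 peaks differed in their Kbu level at 5% CO2, with values from below 1 to above 5. Peak748, peak1583, peak1602 and peak5611 had Kbu between 0.703 and 1.04 times background at 5% CO2, and their control at 0.04% CO2 was at its lowest value. Peak2254, peak4256 and peak6010 had Kbu between 4.58 and 5.92 there and a control of 4.67 to 5.46 times its lowest value. Peak749 lay between, with Kbu at 2.36 and 2.34 and a control of 2.47. All 8 of these named peaks carried H3K9me2 at 5% CO2 too, where 10 peaks of the set did, each in the class with both marks. Peak2876 and peak2482, also strong in H3K9me2 at 0.04% CO2, did not carry it there. Their H3K9me2 at 5% CO2 was 1.83 and 1.64 and 1.42 and 1.69. Of the 47 peaks with H3K9me2 of at least 3 in both libraries at 0.04% CO2, 9 carried it at 5% CO2.

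**Figure D3:**
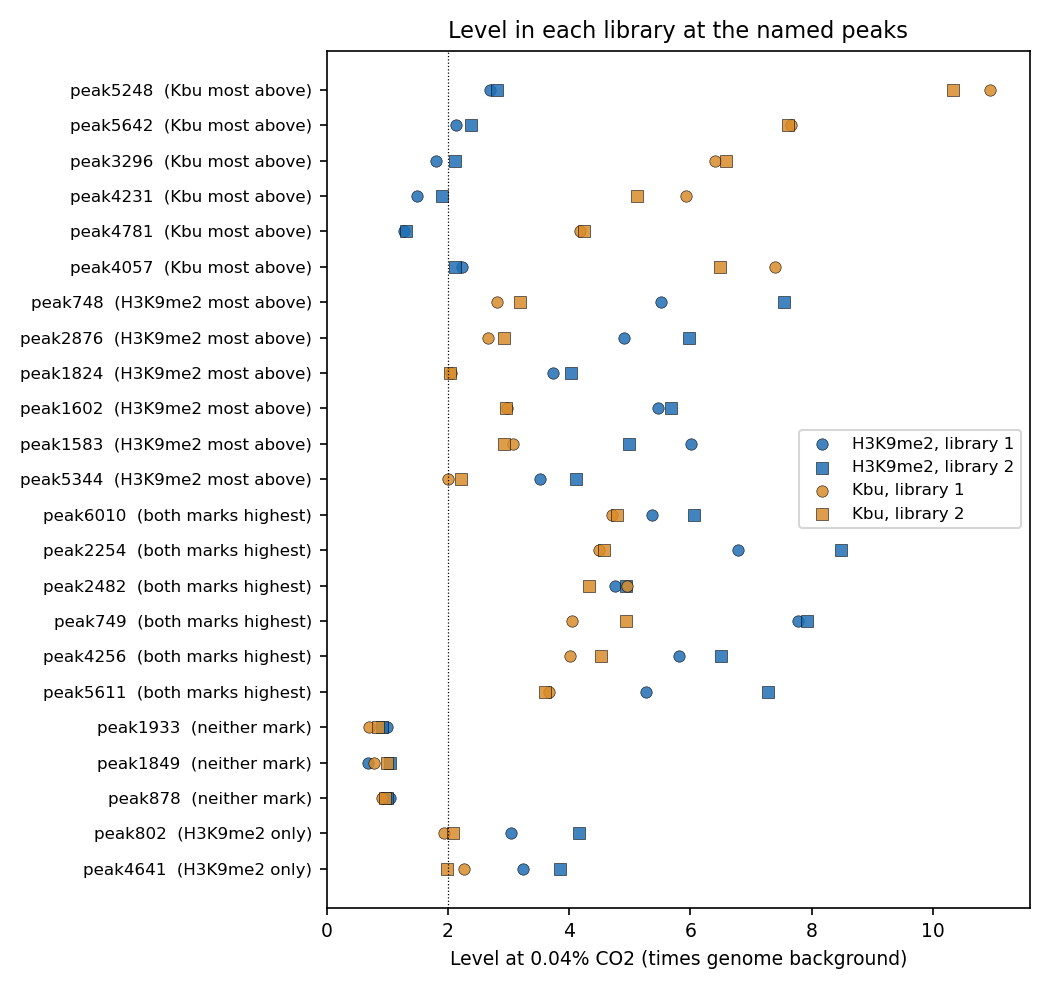
Level of each mark in each of the 4 libraries at 0.04% CO2 for the named peaks, in times genome background, with the dotted line at 2. Circles are library 1 and squares library 2 of each mark. At the first 6 peaks all Kbu values (4.17 to 10.9) lie right of all H3K9me2 values (1.28 to 2.82), and at the next 6 the order is turned.

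The 32 H3K9me2-only peaks were narrow and close to other peaks. Their median width was 628 bp (quartiles 452 and 877 bp), 31.2% of them were under 500 bp against 4.38% of all peaks, and the median gap to the nearest peak was 415 bp against 2045 bp. Their median H3K9me2 level was 2.73 and 3.21, above that of the class with both marks in both libraries, and their median Kbu level was 1.86 and 1.98, just under the cut. H3K9me2 lay above Kbu in all libraries at 28 of the 32, and limma called it higher at 26, which the class itself favours. They lay on 18 of the 30 chromosomes, at most 4 on any of them (chromosomes 1 and 4). Without Kbu library 1 the class held 19 peaks and without H3K9me2 library 1 it held 106.

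The highest of them by the mean of the libraries was peak5344 (chromosome 6, 1175374 to 1176305). H3K9me2 stood there at 3.52 and 4.12 and Kbu at 1.996 and 2.21. Peak802 (chromosome 11, 1075018 to 1075656) had H3K9me2 at 3.04 and 4.16 and Kbu at 1.94 and 2.09. Peak4641 (chromosome 4, 815855 to 816266) had 3.23 and 3.86 beside 2.27 and 1.99. In each of them 1 of the 2 Kbu libraries reached the cut, so the label of H3K9me2 alone rests on a small step, while the excess of H3K9me2 does not. It was -0.83, -0.79 and -0.71 on the log2 scale, with adjusted p-values of 4.1e-05, 0.00016 and 0.00019 in limma.

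Most peaks with H3K9me2 had no neighbour with the mark. A peak next in order on the chromosome carried H3K9me2 for 9 of the 32 H3K9me2-only peaks (28.1%), for 15.4% of the peaks with both marks and for 9.77% of all peaks, and these shares were not tested. On chromosome 21, peak2965 (293055 to 293510) and peak2967 (295365 to 296006), picked after their values were seen, had H3K9me2 at 2.73 and 3.68 and at 3.21 and 3.21. Between them peak2966 (293924 to 295073) had H3K9me2 at 2.04 and 1.99 and Kbu at 1.42 and 1.47. The longest run of consecutive H3K9me2-carrying peaks was 5, from peak3182 to peak3186 on chromosome 22 (526517 to 551086), all with both marks. Within it peak3185, of 603 bp, had H3K9me2 at 3.56 and 3.73 over Kbu at 2.10 and 2.31, and at peak3184, 254 bp away, Kbu was higher with 2.93 and 2.93 over 2.26 and 2.21. Of the 317 H3K9me2-carrying peaks, 264 had no such neighbour.

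Peaks with neither mark were narrow as well, with Kbu levels that ran down to 0.590 in library 1. Their median width was 754 bp (quartiles 571 and 1020 bp). Median Kbu was 1.71 and 1.76 and median H3K9me2 1.41 and 1.52, and Kbu lay above H3K9me2 in all libraries at 747 of the 1500. At 5% CO2, 1137 of them (75.8%) carried Kbu, against 92.7% of all peaks. All 4 libraries were under 1.5 at 174 peaks of the set.

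The peaks lowest in both marks had levels of about 1 or below. Peak1933 (chromosome 17, 334980 to 335315) had H3K9me2 at 0.998 and 0.910 and Kbu at 0.696 and 0.845. Peak1849 (chromosome 16, 798505 to 798861) had 0.673 and 1.04 beside 0.771 and 0.994, and peak878 (chromosome 12, 309989 to 310393) had 1.04 and 0.997 beside 0.907 and 0.969. The difference between the marks passed at none of them in limma (adjusted p = 0.23, 0.83 and 0.60), and the 95% intervals of the difference ran from -0.74 to 0.18, from -0.45 to 0.57 and from -0.51 to 0.30. Their Kbu at 5% CO2 was 1.54 to 1.83 times background.

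H3K9me2 above Kbu therefore covers more than H3K9me2-rich peaks. Of the 324 peaks where both H3K9me2 libraries lay above both Kbu libraries, 55 carried H3K9me2 and 269 did not. In the 55, median H3K9me2 was 3.17 and 3.55 and median Kbu 2.09 and 2.14. In the 269, median H3K9me2 was 1.41 and 1.56, slightly below the medians of all peaks (1.50 and 1.65), and median Kbu was 1.13 and 1.19, well below them (2.54 and 2.63). Limma called 48 of the 55 and 111 of the 269. The split and the order of the marks were set by these same levels, so the medians and calls are a description. The control was low at both kinds, with medians of 1.86 and 2.01 times its lowest value. At the 36 peaks where it was at its lowest value in all 4 libraries, H3K9me2 lay above Kbu at 27. Among the 1546 peaks with the lowest control it did so at 16.2%, and among the 1547 with the highest at 0.970%. The part of the control in this was not tested.

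The share with H3K9me2 above Kbu was highest at the narrowest peaks, but it did not fall steadily with width. H3K9me2 lay above Kbu at 33.2% of the 271 peaks under 500 bp, at 7.31% of those from 500 to 750 bp and at 44 of the 2438 in the bin that starts at 1000 bp. It then stood at 10.6% of the 199 peaks from 1500 to 2000 bp. The share with Kbu only was 10.3% under 500 bp and 86.0% in the bin from 1000 bp, and it was 38.7% from 1500 to 2000 bp, where 44.2% carried both marks. The median Kbu level climbed from 1.52 in the narrowest of these bins to 3.48 in the bin from 1500 to 2000 bp, and the median H3K9me2 level from 1.40 to 2.07. The median control climbed with them, from 1.63 to 5.35 times its lowest value. The 52 peaks of at least 2000 bp stood lower again, with medians of 2.98 for Kbu, 1.92 for H3K9me2 and 5.11 for the control. Of these, 57.7% carried Kbu only and 28.8% both marks, and H3K9me2 lay above Kbu at 1.92%. Peak width comes from the authors' peak calling. Which libraries set it is not given in the notes as read here, so it may not be independent of the levels.

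All 30 chromosomes held Kbu-only, both-mark and neither peaks. The Kbu-only share ran from 56.0% on chromosome 30 to 75.4% on chromosome 10, and the share with both marks from 1.83% on chromosome 28 to 8.82% on chromosome 22. Chromosome 30, with 75 peaks, had the largest share with neither mark (38.7%), and chromosome 22 the smallest (17.6%). Peaks with H3K9me2 above Kbu were spread less evenly. They made up 13.9% of the peaks of chromosome 18 (22 of 158), 9.73% of chromosome 29 and 9.19% of chromosome 6 (25 of 272), but 1.23% of chromosome 5 and 1.33% of chromosome 2.

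**Figure D4:**
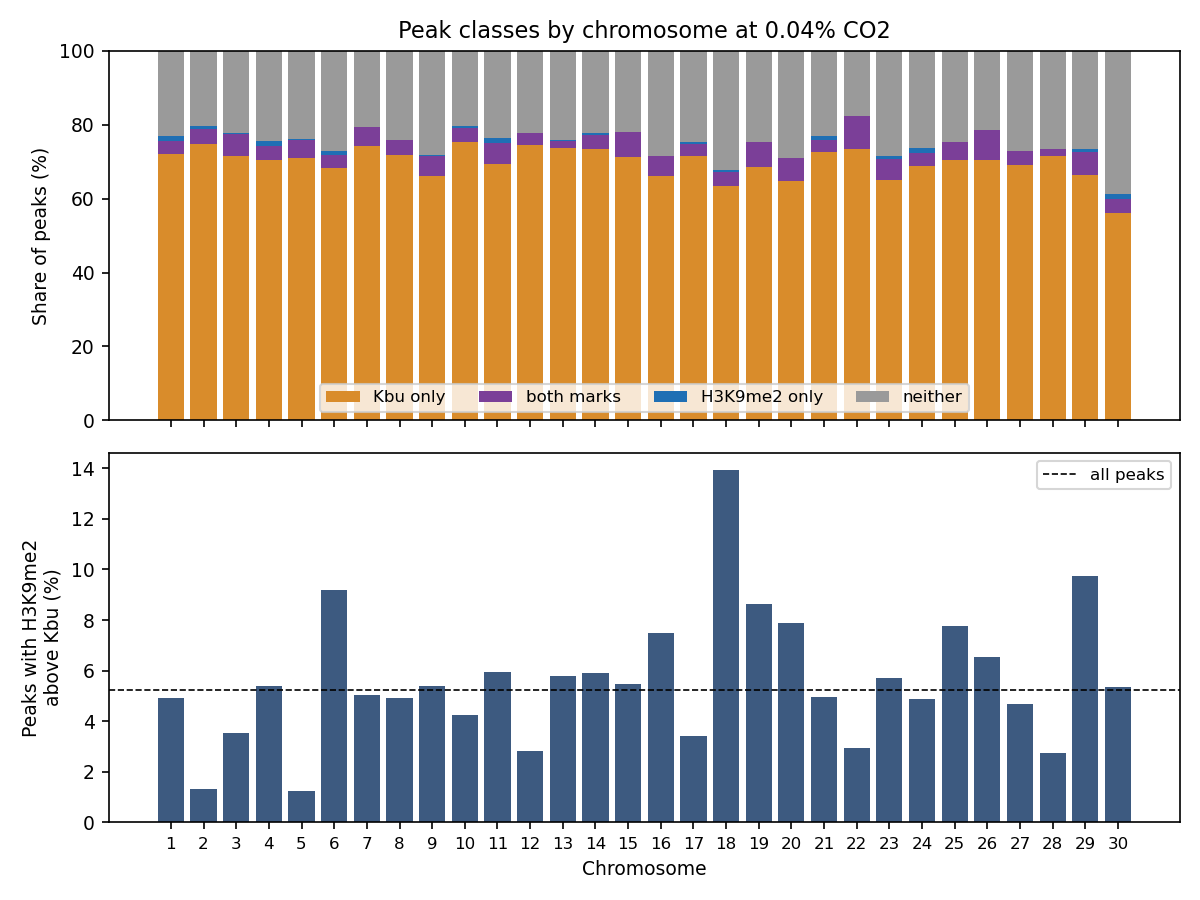
Share of peaks in each class (top) and share with both H3K9me2 libraries above both Kbu libraries (bottom), in percent of the peaks of each of the 30 chromosomes. The dashed line is the share over all peaks (5.24%). Chromosome 18 stands highest in the lower panel at 13.9%.

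On chromosomes 6 and 18 many of these peaks lay in a stretch at a chromosome end. The stretches were picked out after their values were seen. The last 12 peaks of chromosome 6, from peak5371 to peak5382 (1309893 to 1355509), all had both H3K9me2 libraries above both Kbu libraries. No other run of such peaks was longer than 4. Their Kbu level had a lowest, median and highest value of 0.771, 0.930 and 1.30 in library 1 and of 0.795, 1.02 and 1.42 in library 2. H3K9me2 ran over 1.02, 1.31 and 1.56 in library 1 and over 1.13, 1.45 and 1.82 in library 2. At these 12 peaks, spread over 45616 bp, Kbu thus had a median close to 1, and the median of H3K9me2 was below that of all peaks in both libraries. Limma called H3K9me2 higher at 6 of the 12 and Kbu at none, against 2.59% and 80.5% of all peaks. Choosing the stretch by the order of the marks favours these calls.

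The first 17 peaks of chromosome 18, from peak2053 to peak2069 (3265 to 103271), showed the same pattern at 14 peaks. Kbu had a lowest, median and highest value of 0.756, 0.938 and 1.41 in library 1 and of 0.770, 0.944 and 1.24 in library 2. H3K9me2 had 1.06, 1.32 and 1.48 in library 1 and 1.17, 1.39 and 1.69 in library 2. Limma called 9 of the 17 as higher in H3K9me2 and none as higher in Kbu, against 2.59% and 80.5% of all peaks. The choice of this stretch favours the calls in the same way. No peak in either stretch carried a mark at 0.04% CO2. At 5% CO2, Kbu was carried at 7 of the 12 peaks on chromosome 6 and at 1 of the 17 on chromosome 18, against 92.7% of all peaks.

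The control was lower in the stretches, and its part was not tested. Median width was 1300 bp on chromosome 6 and 796 bp on chromosome 18, and the median control was 2.74 and 1.93 times its lowest value, against 3.52 over all peaks. Elsewhere on these chromosomes H3K9me2 lay above Kbu at 5.00% and 5.67% of peaks, close to the 4.84% of all 6156 peaks outside the stretches. The first and last peaks of the 30 chromosomes, 60 in all, had H3K9me2 above Kbu in 19 cases (31.7%).

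**Figure D5:**
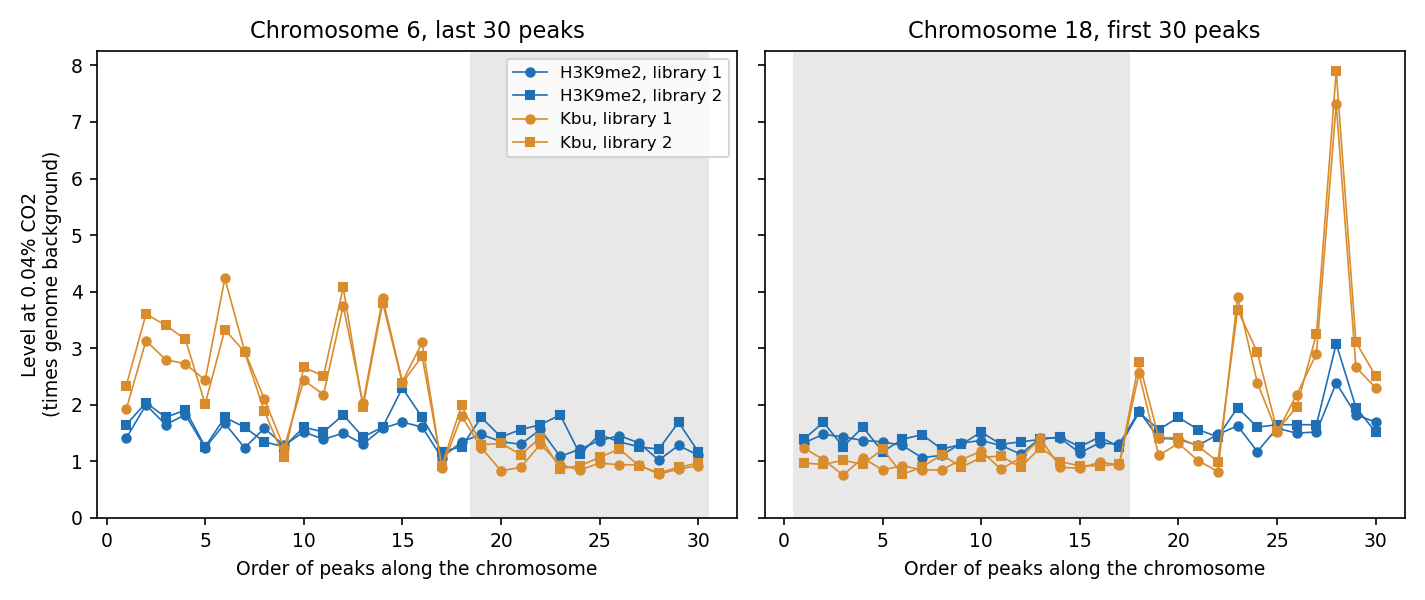
Level of each library at 0.04% CO2 (times genome background) at the last 30 peaks of chromosome 6 and the first 30 peaks of chromosome 18, in order along the chromosome. Shading marks the stretches of 12 and 17 peaks, where Kbu lies between 0.756 and 1.42 and mostly below H3K9me2.

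To ask whether the difference between the marks depended on CO2, the 8 libraries were fitted together with an interaction of mark and CO2. Kbu minus H3K9me2 was lower at 0.04% than at 5% CO2 at 4882 peaks (78.9%) and higher at 27 (0.437%) (limma, adjusted p under 0.05), with a median of -0.68 on the log2 scale. In the 5% CO2 libraries the control of Kbu was 2.09 to 2.38 times that of H3K9me2 over the peaks in library 1 and 2.17 to 2.61 times in library 2, and its part in this value was not tested. With the control of each peak as the divisor, the counts were 4983 lower and 31 higher. With all libraries scaled to the same median level, the counts were 403 lower and 309 higher. The median was then -0.02, which the scaling itself largely fixes. The 27 peaks were narrow (median 595 bp) with a low control (median 1.17 times its lowest value), and 26 of them did not carry Kbu at 5% CO2. Their median Kbu level was 1.02 and 0.979 at 5% CO2 and 2.74 and 2.81 at 0.04% CO2. The 27 were chosen by a test on these same levels, which favours both the rise and the low Kbu at 5% CO2.

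Several of the strongest H3K9me2 peaks were among these 27. At peak748 the difference between the marks was -2.10 at 5% CO2 and -1.08 at 0.04% CO2, so H3K9me2 was above Kbu at both, and by less at low CO2 (limma adjusted p = 0.00041). Peak5611, peak1583 and peak1602 behaved likewise. At peak2254 and peak4256, by contrast, Kbu stood slightly above H3K9me2 at 5% CO2, by 0.22 and 0.44, and H3K9me2 stood above Kbu at 0.04% CO2. These interactions were -0.95 and -0.96 (limma adjusted p = 0.00016 and 9.7e-05), but with libraries scaled to the same median level they were -0.28 and -0.29 and did not pass (adjusted p = 0.15 and 0.13). The largest interaction among the named peaks was at peak2482, with -1.76 (limma adjusted p = 3.9e-06), where H3K9me2 went from 1.42 and 1.69 at 5% CO2 to 4.75 and 4.94.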

How the data were processed

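ChIP-seq of Kbu and H3K9me2 was used at 0.04% CO2 (2 libraries each), with the 4 libraries at 5% CO2 for the interaction. For each of 6185 peaks the authors deposited, per the file headers, a pileup signal, a control lambda signal and a normalised signal per library. Per the submitters' processing notes, Trim Galore, BWA, Picard, deepTools and MACS2 were used, and their settings and the genome build are not given in those notes as read here. The level was the pileup over the lowest lambda of the library. It was tested as log2(level + 0.1) with limma 3.58.1 (trended empirical Bayes, R 4.3.3) and Benjamini-Hochberg adjustment over all peaks. Fold changes are on that scale and understate changes at low levels. The spread was moderated across peaks with 13.3 prior degrees of freedom for the marks and 12.1 for the interaction. Other values were computed with Python 3.11.15, pandas 2.3.3 and SciPy 1.17.1. Pileups were whole multiples of what 1 read is worth at 100% of peaks (tolerance 0.05), and this gave the reads per level. Counting errors cover counting only.

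Named peaks were the 6 with the largest difference each way among called peaks whose libraries did not overlap, the 6 with the highest lower level of both marks, the 3 lowest in both, and the 3 highest with H3K9me2 only. Peaks outside this rule (peak2965, peak2966, peak2967, peak3184 and peak3185, and the stretches) were chosen after their values were seen. The members and lists were chosen with earlier results of these data known. Alternatives were other pseudocounts, divisors, scalings, filters and cuts, the replicate number as a block, and each library left out. Peaks were not assigned to genes and no sequence is shown.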

Additional observations from a re-analysis of the deposited data

Results flagged for a closer look

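The difference between the marks, Kbu minus H3K9me2 on the log2 scale, depended on CO2 at 16 of the 23 named peaks. This was by the limma interaction over 8 libraries with Benjamini-Hochberg adjustment over all peaks (adjusted p under 0.05). Over all 6185 peaks the difference was lower at 0.04% CO2 at 78.9% and higher at 0.437%, so passing was not particular to the named peaks. The values below are the difference at 0.04% CO2 minus that at 5% CO2, and over all peaks their median was -0.68. Among peaks with the largest excess of Kbu, the interaction was -0.92 at peak5642, -0.37 at peak3296, -0.66 at peak4231, -0.38 at peak4781 and -1.12 at peak4057. Kbu stood above H3K9me2 at both CO2 levels at these 5.

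At peaks with H3K9me2 above Kbu at both CO2 levels, it was 1.02 at peak748, 0.62 at peak1602, 0.79 at peak1583, 1.13 at peak5611 and -0.46 at peak4641. At 6 peaks the order of the marks on this scale differed between CO2 levels, with Kbu higher at 5% CO2 and H3K9me2 higher at 0.04% CO2. These were peak5344 with -1.15, peak6010 with -0.65, peak2254 with -0.95, peak4256 with -0.96, peak2482 with -1.76 and peak1933 with -1.22. At peak2482 and peak1933 the difference at 0.04% CO2 did not pass (limma adjusted p = 0.62 and 0.23).

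With libraries scaled to the same median level, 10 of the 16 interactions no longer passed. They were -0.25 at peak5642 (limma adjusted p = 0.346), -0.45 at peak4057 (0.0579), -0.57 at peak1933 (0.224), -0.28 at peak2254 and -0.29 at peak4256, and they changed sign at peak3296, peak4231, peak4781, peak6010 and peak4641. Without any 1 of the 4 Kbu libraries, the adjusted p was 0.0701 to 0.115 at peak3296 and 0.058 to 0.127 at peak4781. Peak3296 also missed the threshold without H3K9me2 library 2 at 0.04% CO2 (0.0981) and with a pseudocount of 1 (0.0501). At peak4641 it was 0.0583 to 0.161 without library 2 of either mark at either CO2 level, and 0.0598 over the control of the peak.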

How the results depend on the processing

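The scaling and the divisor set most counts. With libraries scaled to the same median level, Kbu was higher at 827 peaks and H3K9me2 at 1297, the interaction was higher at 309 and lower at 403, and the classes held 1208 (Kbu only), 1833 (both), 1079 (H3K9me2 only) and 2260 (H3K9me2 above Kbu). The authors' normalised signal gave 332 and 1320. Over the control of the peak, 9 peaks held Kbu only, 6 both, 11 H3K9me2 only and 6159 neither, and the difference of medians was 0.280. Over the 1st percentile of the control, 138 held both and 2355 neither, and the difference was 0.896. A cut of 1.5 gave 2509 with both, 97 with H3K9me2 only and 478 with neither, a cut of 3 gave 1278 with Kbu only, 24 with both, 23 with H3K9me2 only and 4860 with neither, and the mean of the libraries gave 455 with both. Without the lowest 25% of peaks, H3K9me2 was higher at 47 and the interaction higher at 11. At an adjusted p under 0.01, H3K9me2 was higher at 88. With at least 2-fold as well, the counts were 820 and 1 for the marks and 9 and 984 for the interaction. The cause of these shifts was not tested.

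Leaving out each library in turn gave 4004 to 5066 peaks with Kbu higher and 78 to 171 with H3K9me2 higher. The latter was 78 without Kbu library 1 and 102 without Kbu library 2 or H3K9me2 library 2. The interaction was higher at 20 to 35 and lower at 4088 to 5112. The classes ranged over 3945 to 4677 (Kbu only), 289 to 708 (both), 19 to 106 (H3K9me2 only), 1191 to 1486 (neither) and 365 to 532 (H3K9me2 above Kbu), and the difference of medians over 0.941 to 1.09. The classes ask for both libraries of a mark, so leaving 1 out loosens the rule. It could only raise or keep the counts of both (285) and H3K9me2 above Kbu (324), and only lower or keep neither (1500). Without H3K9me2 library 1 the counts were 708, 106 and 532 for both, H3K9me2 only and H3K9me2 above Kbu.

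With the replicate number as a block (replicate block), Kbu was higher at 5074 peaks and H3K9me2 at 192, and the interaction was higher at 32 and lower at 5064. Same-numbered libraries correlated in their deviations at 0.044 at low and 0.059 at high CO2, which gave no sign of pairing, although library 1 of both marks at 0.04% CO2 had the same control at 5892 peaks. Among named peaks, the difference at peak1849 reversed to -0.59 (same median) and -0.77 (authors' normalised signal). With the same median, the interaction reversed to 0.60 at peak5248, 0.30 at peak3296, 0.0083 at peak4231, 0.30 at peak4781, 0.54 at peak2876, 0.027 at peak6010, 0.53 at peak749 and 0.14 at peak4641. At none of these did the interaction pass both with and without the scaling. Without it, the difference at peak1849 did not pass either.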
